A study of Homo sapiens with 12 samples.

Results

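The genes described here encode the proteins of the cytosolic ribosome. They are the protein-coding genes of the count table whose symbol is RPL or RPS followed by digits and at most an A or X, together with RPSA, RPLP0, RPLP1 and RPLP2. The rule found 77 genes among the 58302 rows of the table, 46 of the large subunit and 31 of the small subunit, and used no measured value. All 77 passed the filter on low counts and were among the 17849 genes tested. FAU, which encodes a ribosomal protein fused to a ubiquitin-like protein, and RACK1 lie outside the rule and are given further below.

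The ribosome joins a small subunit, which decodes the mRNA, to a large subunit, which forms the peptide bond. Each subunit is built in the nucleolus from ribosomal RNA and from proteins that are needed in nearly equal number, so that the mRNAs of these proteins are commonly controlled as a family. Most of them begin with a terminal oligopyrimidine (TOP) tract, a C followed by a run of pyrimidines, through which mTORC1 and LARP1 adjust their translation and stability to growth conditions.

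NCI-H520 is an established line of human lung squamous cell carcinoma, in which *L1-FGGY*, a chimeric transcript of a LINE-1 element and the gene *FGGY*, was stably expressed from a lentivirus (OV-L1-FGGY), with an empty vector as control (OV-CTRL). The 12 libraries fell into 4 groups of 3 by their labels. One was OV-CTRL with 0.2% DMSO, whose columns in the count table are headed DMSO alone and were read as this group. The others were OV-L1-FGGY given 0.2% DMSO, 10 μM of the 12-LOX inhibitor ML355, or 450 μM of the reverse transcriptase inhibitor NVR. Inhibitor or DMSO was given with the medium replaced 5 h after seeding, and the length of the treatment was not given in the sources used here. Whether a line was 1 clone or a pool is not given in the sources used here, and nothing says whether the 3 libraries of a group came from separate cultures, so that the p-values measure only the spread between these libraries, which may be technical. The authors counted reads per Ensembl gene, and totals ran from 16242082 to 27004768 counts per library. *FGGY* had 4782 to 7346 counts in the libraries of OV-L1-FGGY with DMSO or ML355, but 82 to 103 in the libraries labelled NVR and 78 to 91 in OV-CTRL, so that the OV-L1-FGGY part of the NVR label is not borne out. Of the squamous markers, SOX2 was at 0 counts in all 6 libraries of OV-L1-FGGY with DMSO or ML355 and between 7.02 and 17.1 CPM (counts scaled to a common library size, with edgeR's TMM factors) in the other 6. KRT6A and DSG3 were at 0 counts in all 12, and the sum of the 8 squamous markers was 1.46 to 3.67 CPM in the former and 10.1 to 23.4 CPM in the latter. KRT14 went the other way, at 0 counts in OV-CTRL and the libraries labelled NVR. It was at 0.229 to 0.525 CPM in OV-L1-FGGY with DMSO and 1.49 to 3.31 CPM with ML355. The sum of 5 fibroblast markers was 341 to 359 CPM in OV-L1-FGGY with DMSO, 112 to 122 CPM with ML355 and 19.3 to 25.5 CPM in the other groups, and that of 3 endothelial markers was 8.88 to 9.40 CPM in OV-L1-FGGY with DMSO and under 1 CPM in the other groups. The NVR-labelled libraries also differed from OV-CTRL, with the sum of 4 neuroendocrine markers at 16.4 to 23.7 CPM against 5.196 to 7.56 CPM and that of 3 adenocarcinoma markers at 7.36 to 10.5 CPM against 4.45 to 5.34 CPM. The part of these markers in the results was not tested. Because of the *FGGY* and SOX2 counts the libraries labelled NVR are compared first with OV-CTRL, and every difference between the former 6 and the latter 6 libraries is given with the reserve that cell line, vector and treatment cannot be told apart.

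The start sites of the genes show the feature the family shares. RefSeq windows of GRCh38.p14, from 250 bases before to 50 bases after the transcription start, were found for 62 of the 77 genes. In 46 of them (74.2%) the start was a C followed by at least 4 C or T, against 4.09% of all 27305 windows. A run of at least 5 C or T that begins with C within 5 bases of the start was found in 53 of the 62 (85.5%), against 21% of all windows. The sequence CCGGAAG, searched on both strands, was in 33.9% of the 62 windows and in 10.9% of all windows. AAGATGG, likewise on both strands, was in 12.9% and 6.15%, and TATAAA on the gene's own strand within 50 bases before the start was in 3.23% and 2.99%. These matches describe the letters alone. The sequences below run from 30 bases before the start to 20 bases after it, and are shown because these 5 genes had the highest log2 fold changes after ML355 among genes whose window begins at the start in GENCODE. Capitals mark the run of C and T that begins with C within 5 bases of the start, where it reached 5 bases.
RPL36 (chr19:5690265-5690314, plus strand): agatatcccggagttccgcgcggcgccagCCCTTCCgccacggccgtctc
RPL28 (chr19:55385902-55385951, plus strand): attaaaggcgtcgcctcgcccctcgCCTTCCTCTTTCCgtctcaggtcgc
RPL12 (chr9:127451387-127451436, minus strand): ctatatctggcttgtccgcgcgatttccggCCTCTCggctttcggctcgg
RPL26 (chr17:8383174-8383223, minus strand): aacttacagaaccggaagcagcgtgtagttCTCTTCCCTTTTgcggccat
RPL17 (chr18:49492446-49492495, minus strand): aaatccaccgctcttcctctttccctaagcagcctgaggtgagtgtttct
The next 5 had the lowest log2 fold changes after ML355 by the same choice.
RPS7 (chr2:3575230-3575279, plus strand): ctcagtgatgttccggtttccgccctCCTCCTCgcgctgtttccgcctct
RPL34 (chr4:108620546-108620595, plus strand): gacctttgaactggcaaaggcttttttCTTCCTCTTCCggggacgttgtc
RPS27A (chr2:55232658-55232707, plus strand): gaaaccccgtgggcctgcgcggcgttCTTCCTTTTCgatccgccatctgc
RPLP1 (chr15:69452788-69452837, plus strand): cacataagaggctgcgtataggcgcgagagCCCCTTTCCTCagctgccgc
RPLP0 (chr12:120201092-120201141, minus strand): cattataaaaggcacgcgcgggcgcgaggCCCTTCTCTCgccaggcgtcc
Such a run was present at the start of all 5 of the genes shown with low values and of 4 of the 5 with high ones, RPL17 being the exception. The RPL17 sequence does hold a long run of C and T, but it begins more than 5 bases before the start used. Its exception thus depends on which start is taken. RPL6, the lowest of the family after ML355 at -0.48, has a window but fell outside this choice. The RefSeq start of its window is not the start in GENCODE, whereas 60 of the 62 windows begin there. Its run of only 2 bases was read at that RefSeq start, so whether RPL6 carries a TOP tract is left undecided. The 46 genes with a C and at least 4 C or T at the start had a median log2 fold change of 0.73 after ML355. The other 16 with a window, RPL6 among them, had 0.46.

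Ribosomal protein mRNAs made up a larger share of all counts in both groups labelled with an inhibitor than in the matching DMSO group. In OV-L1-FGGY with DMSO the 77 genes held 6.15%, 6.98% and 6.09% of the counts in replicates 1 to 3, and with ML355 9.89%, 8.22% and 9.88%. In OV-CTRL they held 8.66%, 7.06% and 6.61%, and in the libraries labelled NVR 12.4%, 10.0% and 14.3%. Neither pair of groups overlapped, and the NVR-labelled group had the widest spread (12.2% ± 2.15, SD, n = 3). The 95% Wilson interval of a share was at most 0.0146 percentage points on either side, which covers counting error only. Large-subunit genes held 3.78% ± 0.296 of all counts in OV-L1-FGGY with DMSO and 5.66% ± 0.611 with ML355, and small-subunit genes 2.63% ± 0.221 and 3.67% ± 0.349 (SD, n = 3). Summed over the family in CPM, the mean with ML355 was 1.60 times that of OV-L1-FGGY with DMSO. The libraries labelled NVR were at 1.86 times OV-CTRL, and OV-L1-FGGY with DMSO was at 0.807 times OV-CTRL. In bulk RNA fewer cells of a type and less RNA per cell cannot be told apart. Mitochondrially encoded RNA moved as well, at 5.79% to 6.52% of counts in OV-L1-FGGY with DMSO and 1.46% to 1.64% with ML355. As a share of the counts outside the mitochondrial genome the family was still at 8.36% to 10.0% with ML355 against 6.52% to 7.41% with DMSO. Counts on 1587 ribosomal protein pseudogenes came to 0.844% to 1.28% of the family's counts.

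**Figure D1:**
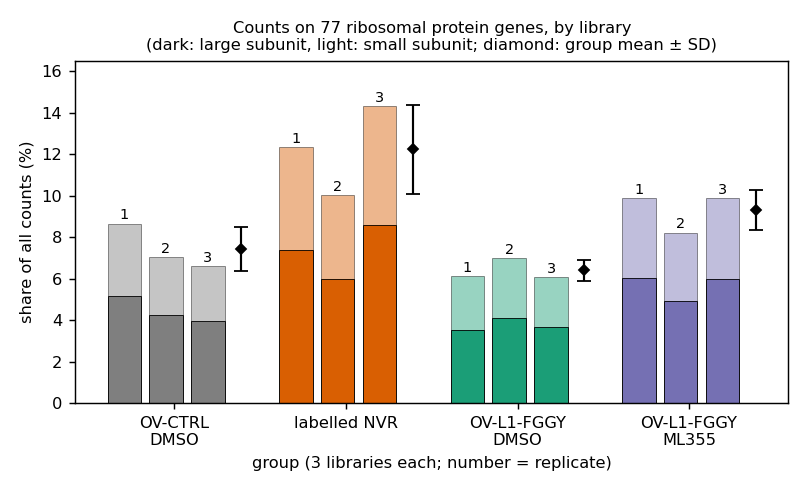
Share of all counts, in percent, held by the 77 ribosomal protein genes in each of the 12 libraries, split into large subunit (dark) and small subunit (light), with the mean ± SD of the 3 libraries of a group as a diamond with bars. All 3 ML355 libraries (8.22% to 9.89%) stand above all 3 OV-L1-FGGY DMSO libraries, and all 3 NVR-labelled libraries (10.0% to 14.3%) above all 3 OV-CTRL libraries.

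The members did not vary independently between replicates. Of the 77 genes, 74 had the highest CPM of their group in OV-CTRL replicate 1 (96.1%, against 41.3% of all genes tested), and 70 had the lowest in replicate 3. Among the libraries labelled NVR, 75 were highest in replicate 3 and 76 lowest in replicate 2. With ML355, 70 were lowest in replicate 2, whereas in OV-L1-FGGY with DMSO 54 were highest in replicate 2. Other short transcripts moved with them. For 222 other protein-coding genes with a transcript of at most 1000 nt and a mean of at least 100 CPM, the median log2 deviation from the group mean was 0.27 in OV-CTRL replicate 1, where that of the 77 genes was 0.31. In the NVR-labelled replicate 2 it was -0.36 against -0.39, and in replicate 3 it was 0.33 against 0.37. Across all 12 libraries the 2 medians had the same sign. A count of members past a test is therefore not a count of independent observations, and the part of transcript length in the group differences was not tested.

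**Figure D2:**
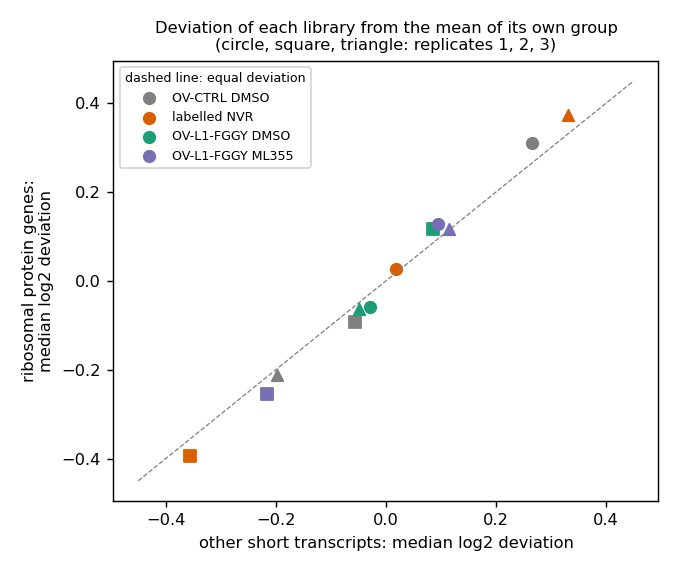
Each point is 1 of the 12 libraries, with the median log2 deviation of the 77 ribosomal protein genes from the mean of the library's own group on the vertical axis and that of 222 other short transcripts on the horizontal axis; colour marks the group and shape the replicate. The points lie near the dashed line of equal deviation, from -0.39 to 0.37 for the ribosomal protein genes.

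Levels differed widely between members. Means over the 12 libraries ran from 1.79 to 4064 CPM with a median of 970.4 CPM. Per kilobase of transcript the highest were RPS19, whose loss causes Diamond-Blackfan anaemia, at 5379 CPM per kb, the small-subunit gene RPS16 at 4368 and RPL13A at 3606. The lowest were RPS10 at 3.04, RPL17 at 3.32 and RPL36A at 9.26 CPM per kb. The length was that of the shortest transcript whose coding sequence is as long as that of the Ensembl canonical transcript. For RPL37, RPL14 and RPL27A it is so long (7573, 7072 and 4535 nt) that their level per kb is understated. In GENCODE 44 the exons of RPL17 are overlapped for 96.9% of their bases by the readthrough gene RPL17-C18orf32, those of RPS10 for 84.0% by RPS10-NUDT3 and those of RPL36A for 43.8% by RPL36A-HNRNPH2, all on the same strand. These 3 readthrough genes had 0 counts in every library. RPL26 (65.3%) and RPS15A (41.5%) are overlapped in the same way by other genes, with 0 to 2 counts. A read in shared exons cannot be assigned to either gene, so the levels and changes of these 5 genes are uncertain. Of the members 8 had a mean under 100 CPM, namely RPS10, RPL17, RPL36A, RPL26, RPS23, RPL30, RPL23A and RPS15A. In addition, over 50% of the 50-base words of 22 members occur in transcripts of other genes, up to 92.8% for RPL21, 90.0% for RPS3A and 89.6% for RPL9, and how such reads were counted is not stated.

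In OV-L1-FGGY cells treated with ML355, ribosomal protein mRNAs were raised under every scaling of the libraries except division by the family's own counts, which sets the family to no change. At an adjusted p under 0.01 by edgeR's quasi-likelihood test with Benjamini-Hochberg adjustment over all genes, 38 of the 77 rose and 0 fell, where 21.3% of all genes tested were called higher and 23.5% lower, 44.8% in all. The other 39 did not pass the test. DESeq2 called 46 higher and 1 lower and limma voom 38 and 0. The median log2 fold change was 0.63, and 75 of the 77 values were above 0. Of 46 large-subunit genes 26 rose (median 0.69), and of 31 small-subunit genes 12 rose (median 0.51). The other 1005 protein-coding genes with a transcript of at most 1000 nt had a median of 0.32, with 310 called higher and 128 lower, and those with longer transcripts -0.04. Of the 222 short ones with a mean of at least 100 CPM, 87 (39.2%) were called higher and 21 lower, with a median of 0.39. In CPM 63 members had groups that did not overlap with ML355 above, against 30% of all genes, and 1 with ML355 below, against 32.6%. The count of 38 was 23 without OV-L1-FGGY DMSO replicate 1, 24 without ML355 replicate 1 and 60 in a fit of these 6 libraries alone.

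Among members with separate groups the largest rises after ML355 were those of RPL17, RPL36, RPL28, RPL12 and RPL26. RPL36 was at 68.4, 105 and 109 CPM in OV-L1-FGGY with DMSO and 358, 239 and 536 CPM with ML355 (log2 fold change 2.01, standard error 0.31, edgeR adjusted p = 4.0e-05). RPL28, a eukaryote-specific protein of the large subunit encoded at chromosome 19, 55385932 to 55403250 of GRCh38, was at 403, 427 and 408 CPM and 1529, 1061 and 1780.4 CPM (log2 fold change 1.82, standard error 0.25, edgeR adjusted p = 1.2e-05). The lowest ML355 library of RPL28 stood at more than 2 times the highest DMSO library. RPL12, at the base of the stalk that binds translation factors, went from 562, 726 and 670.5 CPM to 2361, 1767 and 2623 CPM (log2 fold change 1.79, standard error 0.20, edgeR adjusted p = 1.6e-06). RPL26, which lies near the exit of the peptide tunnel and shares its exons with another gene, went from 5.96, 7.78 and 7.40 to 27.3, 15.0 and 23.7 CPM (log2 fold change 1.64, standard error 0.24, edgeR adjusted p = 2.4e-05). RPL17 had 11, 16 and 20 counts with DMSO and 154, 82 and 92 counts with ML355 (log2 fold change 2.73, standard error 0.36, edgeR adjusted p = 8.9e-06), the largest fold of the family on its second-lowest level, in a gene whose exons are nearly all shared.

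The proteins with known roles outside translation differed among themselves. RPL5 and RPL11 travel together to the large subunit and, when free, bind MDM2. RPL11 was at 326, 473 and 579 CPM with DMSO and 1550.3, 1059 and 1297 CPM with ML355 (log2 fold change 1.504, standard error 0.24, edgeR adjusted p = 5.7e-05), whereas RPL5 was at 1156, 1188 and 1137 CPM and 1441, 1331 and 1156 CPM, groups that overlapped (log2 fold change 0.17, standard error 0.13, edgeR adjusted p = 0.262). RPL22, whose paralog RPL22L1 it restrains in other cells, rose from 254, 309 and 334 CPM to 808, 533 and 781 CPM (log2 fold change 1.24, standard error 0.18, edgeR adjusted p = 3.1e-05). RPS6, the substrate of S6 kinase, rose from 793, 916 and 954 CPM to 1660.3, 1263 and 1209 CPM (log2 fold change 0.63, standard error 0.18, edgeR adjusted p = 0.0071). RPSA, also known as the laminin receptor precursor, rose with a log2 fold change of 0.65 (edgeR adjusted p = 0.0055). RPL41, which encodes the shortest protein of the ribosome, rose by 1.16 (edgeR adjusted p = 5.6e-04) on that scale and RPL39, in the wall of the peptide tunnel, by 0.51 (edgeR adjusted p = 0.0086).

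The stalk proteins and several small-subunit genes did not pass the test after ML355. RPLP0, the stalk's base, was at 2701, 2709 and 2222 CPM with DMSO and 3122, 2632 and 3331 CPM with ML355, with overlapping groups and a log2 fold change of 0.25 (edgeR adjusted p = 0.228). RPLP1 was at 0.24 (edgeR adjusted p = 0.405) and RPLP2 at 0.68 (edgeR adjusted p = 0.0302). RPS27A, whose protein is made as a fusion with ubiquitin, was at 2032, 1998 and 1578 CPM and 2180.2, 1980.1 and 2386 CPM, a log2 fold change of 0.22 (edgeR adjusted p = 0.278). The log2 fold changes of RPS14, the gene haploinsufficient in the 5q deletion syndrome, and RPS19 were 0.37 (edgeR adjusted p = 0.117) and 0.44 (edgeR adjusted p = 0.104). Those of RPS4X, RPL10, RPL13A and RPS16 were 0.42 (edgeR adjusted p = 0.0333), 0.57 (edgeR adjusted p = 0.0184), 0.48 (edgeR adjusted p = 0.0331) and 0.51 (edgeR adjusted p = 0.0281), with the ML355 libraries above the DMSO libraries in each. RPL6 stood apart, at 1141, 1229 and 1179 CPM with DMSO and 915, 828 and 795 CPM with ML355. Its groups did not overlap, with ML355 below, but its log2 fold change of -0.48 (edgeR adjusted p = 0.0147) missed the threshold. It is the lowest value of the family and was named after its values were seen, and 81.5% of its 50-base words occur in transcripts of other genes.

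**Figure D3:**
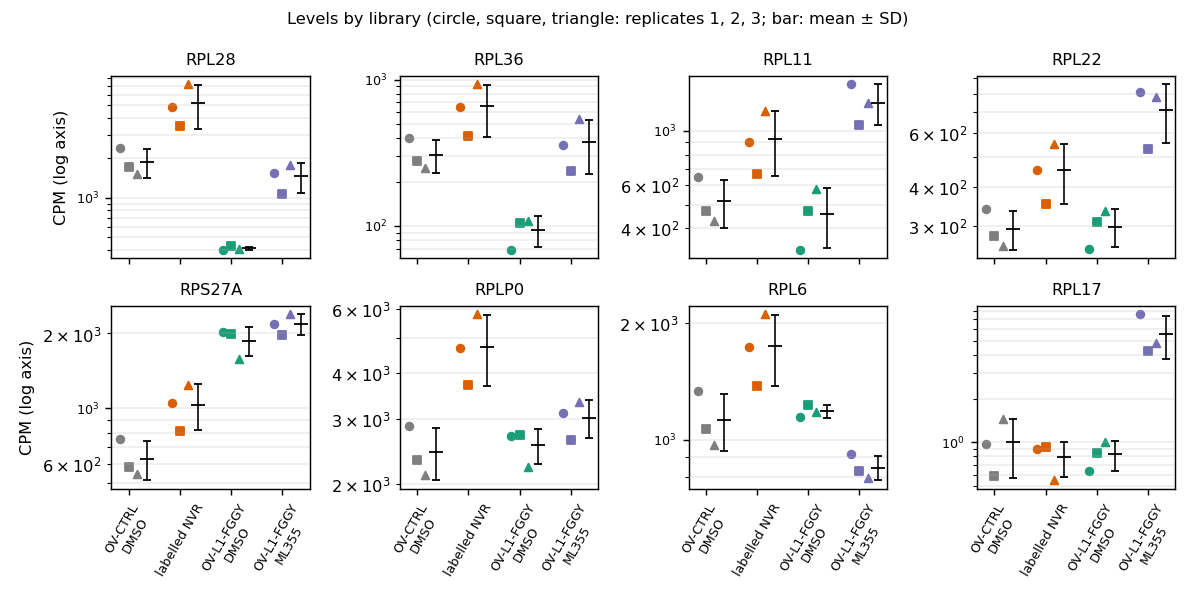
CPM on a log axis in each of the 12 libraries for 8 ribosomal protein genes, with the replicate given by shape and the mean ± SD of each group (n = 3) beside the points. RPL28 and RPL36 are lowest in OV-L1-FGGY with DMSO, while RPL6 with ML355 lies below every other group.

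In the libraries labelled NVR nearly the whole family was higher than in OV-CTRL, under every scaling of the libraries except division by the family's own counts. In the fit of all 12 libraries 62 of the 77 were called higher and 0 lower, where 14.5% of all genes tested were called higher and 15.3% lower, 29.8% in all. DESeq2 called 68 higher and 1 lower and limma voom 61 and 0. The median log2 fold change was 0.85, the middle 50% of members lay between 0.72 and 0.95, and the CPM of 61 members did not overlap between the groups with NVR above (26.4% of all genes), and 1 with NVR below (26.5%). The small subunit had 28 of 31 called higher (median 0.88) and the large subunit 34 of 46 (median 0.81). Other genes with a transcript of at most 1000 nt had a median of 0.40, and 278 of 1005 were called higher. Of the 222 with a mean of at least 100 CPM, 84 (37.8%) were called higher and 13 lower, with a median of 0.47. Across the members the Spearman correlation of GC content with log2 fold change was 0.45, against 0.20 across 13788 other protein-coding genes, and the part of GC content was not tested. The count of 62 depended on single libraries. It was 26 without OV-CTRL replicate 2, 22 without OV-CTRL replicate 3, 40 without NVR replicate 1 and 37 without NVR replicate 3, and 12 in a fit of these 6 libraries alone, while the median stayed between 0.64 and 1.03 with any 1 library left out.

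Among the largest rises with separate groups were those of RPL28, RPL13, RPS28 and RPLP2. RPL28 was at 2379, 1696 and 1512 CPM in OV-CTRL and 4903, 3461 and 7250.2 CPM in the libraries labelled NVR (log2 fold change 1.48, standard error 0.24, edgeR adjusted p = 1.8e-04). RPL13 went from 2483, 1918 and 1638 CPM to 4704, 3209.8 and 6873 CPM (log2 fold change 1.29, standard error 0.24, edgeR adjusted p = 4.2e-04). In both the NVR-labelled replicate 3 was highest and replicate 2 lowest, as for nearly all members. RPS28 had a log2 fold change of 1.21 (edgeR adjusted p = 0.0010). The stalk proteins RPLP0, RPLP1 and RPLP2, which did not pass the test after ML355, were at 0.96 (edgeR adjusted p = 4.1e-04), 1.17 (edgeR adjusted p = 9.8e-04) and 1.18 (edgeR adjusted p = 0.0016). The difference between their changes in the 2 comparisons did not pass the test either (edgeR adjusted p = 0.0264, 0.0305 and 0.273). RPLP0 was at 2877, 2323 and 2114 CPM in OV-CTRL and 4680.1, 3724 and 5787 CPM in the libraries labelled NVR, with all 3 of the latter above.

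Other members rose as well. RPS19 rose by 1.15 (edgeR adjusted p = 6.9e-04) on the log2 scale, RPS16 by 0.92 (edgeR adjusted p = 9.1e-04), RPL13A by 1.04 (edgeR adjusted p = 3.0e-04) and RPL10, which joins the large subunit late in its assembly, by 0.94 (edgeR adjusted p = 9.8e-04). RPS4X, RPS6 and RPL11 rose by 0.88 (edgeR adjusted p = 4.3e-04), 0.84 (edgeR adjusted p = 0.0016) and 0.85 (edgeR adjusted p = 0.0083). Log2 fold changes of RPL39, RPS14, RPS27A and RPSA were 0.74 (edgeR adjusted p = 0.0010), 0.73 (edgeR adjusted p = 0.0064), 0.72 (edgeR adjusted p = 0.0029) and 0.72 (edgeR adjusted p = 0.0041), all past the test. RPL5, RPL22 and RPL41 missed it at 0.44 (edgeR adjusted p = 0.0120), 0.63 (edgeR adjusted p = 0.0112) and 0.72 (edgeR adjusted p = 0.0197), although their groups did not overlap. RPL36A and RPL17 were the 2 members with values below 0, at -0.66 (edgeR adjusted p = 0.0105) and -0.32 (edgeR adjusted p = 0.526), and RPS10 was at 0.78 (edgeR adjusted p = 0.158), all 3 with few counts and shared exons.

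**Figure D4:**
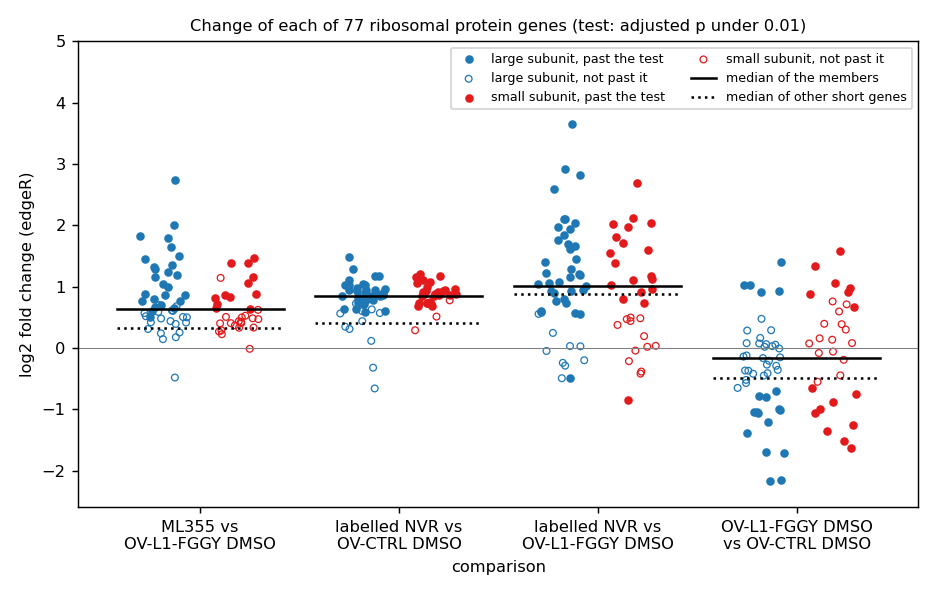
Log2 fold change of each of the 77 genes in 4 comparisons, with filled points for genes past an adjusted p under 0.01 (edgeR) and open points for the others, large subunit in blue and small subunit in red; the solid line is the median of the members and the dotted line that of 1005 other genes with short transcripts. Values lie mostly above 0 for ML355 (median 0.63) and closely packed above 0 for the labelled NVR libraries against OV-CTRL (median 0.85), a direction that division by the family's own counts removes, and spread to both sides for OV-L1-FGGY with DMSO against OV-CTRL.

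The changes with ML355 and with the NVR label rest on separate libraries, so that they could be set side by side and their difference tested. In both, 27 members were called higher, which is 71.1% of the 38 that rose after ML355 and 43.5% of the 62 higher with the NVR label. Of all 77 members 80.5% were called higher with the NVR label and 49.4% after ML355, so that both overlaps lie below the share of the whole family, and 4 were called in neither. Across the 77 members, which are not independent replicates, Pearson's r between the 2 changes was -0.14 and Spearman's rho -0.05, and rho was 0.07 over the 69 members with a mean of at least 100 CPM. The difference itself, ML355 against its DMSO control minus the NVR label against OV-CTRL, passed the test in 4 members, against 34.1% of all genes tested. It was above 0 in 3 of them (17.3% of all genes) and below 0 in 1 (16.8%). Of these, RPL17 (log2 fold change 3.05, standard error 0.53, edgeR adjusted p = 2.0e-04), RPL26 (log2 fold change 1.52, standard error 0.33, edgeR adjusted p = 0.0012) and RPL36A (log2 fold change 1.25, standard error 0.27, edgeR adjusted p = 0.0013), had the higher signed value with ML355 and are among the genes with few counts and shared exons. RPL17 and RPL26 were called higher after ML355, whereas RPL36A passed the test in neither comparison, at 0.59 after ML355 and -0.66 with the NVR label. The other was RPL6 (log2 fold change -1.12, standard error 0.22, edgeR adjusted p = 6.4e-04), at 1338, 1067 and 969.5 CPM in OV-CTRL and 1739, 1380.3 and 2110.5 CPM with the NVR label. Its groups stood apart upward in one comparison and downward in the other. The number of members with a smaller change under ML355 was 4 without OV-CTRL replicate 1 and 11 without NVR replicate 2, in place of 1. This test also holds the difference between the 2 DMSO groups, so that inhibitor and cell line cannot be told apart in it.

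**Figure D5:**
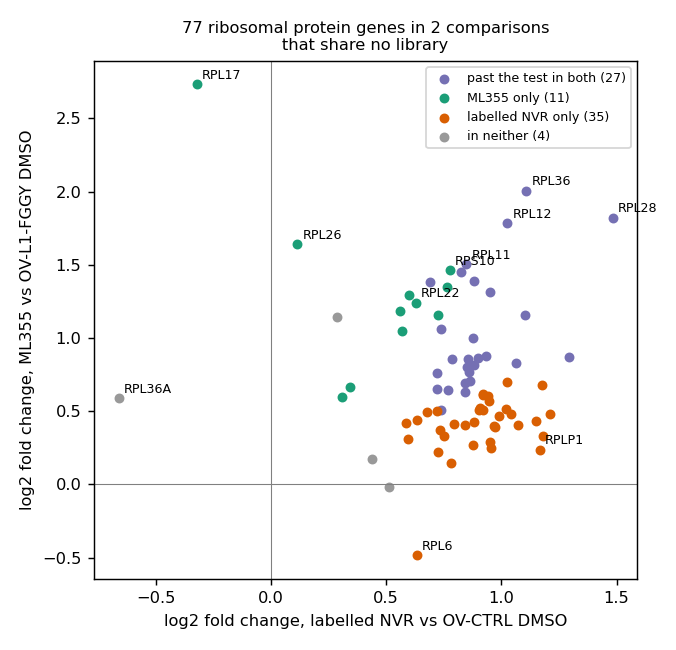
Log2 fold change of the 77 genes for the NVR label against OV-CTRL (horizontal axis) and after ML355 against OV-L1-FGGY with DMSO (vertical axis), coloured by which comparison passed the test. The horizontal values cluster near 0.85 while the vertical ones spread from -0.48 to 2.73, with 27 genes past the test in both and RPL6, RPL17 and RPL36A apart from the rest.

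Between the 2 DMSO groups members of the family moved to both sides. In OV-L1-FGGY with DMSO 12 of the 77 were higher and 23 lower than in OV-CTRL, where 32.5% of all genes tested were called higher and 36.2% lower, 68.7% in all. Groups did not overlap upward in 15 members (38.5% of all genes) and downward in 32 (43%). The median log2 fold change was -0.17 (-0.02 without OV-CTRL replicate 1, and 0.15 when the family's own counts were the library size), but single members ran from -2.17 to 1.57. RPL28, RPL8, RPL36, RPL38 and RPS9 were the 5 lowest. RPL28 was at 2379, 1696 and 1512 CPM in OV-CTRL and 403, 427 and 408 CPM in OV-L1-FGGY with DMSO (log2 fold change -2.17, standard error 0.25, edgeR adjusted p = 7.4e-07). RPL8, whose protein lies next to the peptidyl transferase centre, was at 3967, 3183 and 2850.3 CPM and 672, 797 and 785 CPM (log2 fold change -2.15, standard error 0.24, edgeR adjusted p = 6.3e-07). RPL36 and RPS9 had log2 fold changes of -1.71 (edgeR adjusted p = 8.2e-05) and -1.63 (edgeR adjusted p = 9.8e-06), and RPL38, which is linked to Hox mRNA translation in mouse embryos, of -1.70 (edgeR adjusted p = 6.1e-06). In each of these 5 genes all 3 libraries of OV-L1-FGGY with DMSO lay below all OV-CTRL libraries.

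At the other end RPS27A was at 756, 582 and 544 CPM in OV-CTRL and 2032, 1998 and 1578 CPM in OV-L1-FGGY with DMSO (log2 fold change 1.57, standard error 0.17, edgeR adjusted p = 4.6e-07). RPL31 was at 748, 559.8 and 523 CPM and 1681, 1738 and 1396 CPM (log2 fold change 1.396, standard error 0.19, edgeR adjusted p = 4.2e-06). RPS15A, RPS3A and RPL34 followed with 1.33 (edgeR adjusted p = 1.4e-04), 1.06 (edgeR adjusted p = 2.8e-05) and 1.03 (edgeR adjusted p = 4.8e-05). RPL5 was higher by 0.92 (edgeR adjusted p = 7.2e-06) while its partner RPL11 was at -0.17 (edgeR adjusted p = 0.527), which did not pass the test. RPL10, RPL41, RPS16, RPSA, RPS19 and RPS6 were lower, by log2 fold changes of -0.9996 (edgeR adjusted p = 1.8e-04), -1.38 (edgeR adjusted p = 6.0e-05), -1.06 (edgeR adjusted p = 7.6e-05), -0.99 (edgeR adjusted p = 1.0e-04), -0.88 (edgeR adjusted p = 0.0019) and -0.76 (edgeR adjusted p = 0.0012). RPLP0, RPLP1, RPLP2, RPL13A, RPL22, RPL39, RPS4X and RPS14 were between -0.52 and 0.16 and did not pass the test. GC content varied with these values too. The 38 members above the family's median GC content of 49.0% had a median log2 fold change of -0.48, with 3 higher and 15 lower, and the other 39 had -0.01, with 9 higher and 8 lower. Other short transcripts on the same sides of that GC content had medians of -0.80 (698 genes, 137 higher and 359 lower) and 0.15 (307 genes, 119 higher and 87 lower). Of all genes tested 32.5% were called higher and 36.2% lower. The Spearman correlation of GC content with log2 fold change was -0.28 across the members and -0.40 across 13788 other protein-coding genes, and its part in the difference was not tested.

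Set against OV-L1-FGGY with DMSO, the group named in their label, the libraries labelled NVR had 54 members higher and 2 lower, where 38.2% of all genes tested were called higher and 35.4% lower, 73.6% in all. Groups did not overlap upward in 55 members (42.5% of all genes) and downward in 3 (40%). The median was 1.01 where that of other short transcripts was 0.88. Of the 222 short ones with a mean of at least 100 CPM, 142 (64.0%) were called higher and 40 lower, with a median of 0.97. That is close to the members, of which 70.1% were called higher. The members' median turned to -0.20 when the family's own counts were the library size. The correlation with GC content was 0.41 both across the members and across other protein-coding genes. RPL28 was higher by a log2 fold change of 3.66 (edgeR adjusted p = 2.3e-09), RPL8 by 2.92 (edgeR adjusted p = 1.8e-08), RPL36 by 2.82 (edgeR adjusted p = 4.3e-07), RPS9 by 2.69 (edgeR adjusted p = 3.4e-08) and RPL38 by 2.60 (edgeR adjusted p = 4.8e-08). RPS27A fell by 0.85 on the log2 scale (edgeR adjusted p = 2.5e-04) and RPL5 by 0.48 (edgeR adjusted p = 0.0025). Without NVR replicate 3 there were 5 members lower and without OV-L1-FGGY DMSO replicate 2 only 1. This comparison shares its libraries with those already given.

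When the summed counts of the 77 genes served as library size, each gene was read against the family. After ML355 13 members were then above the family and 5 below it (4.25% and 33.2% of all genes on this scale). The 13 were RPL8, RPL11, RPL12, RPL17, RPL22, RPL26, RPL27A, RPL28, RPL36, RPL37, RPS2, RPS12 and RPS25, and the 5 were RPL6, RPL34, RPLP0, RPS7 and RPS27A. On this scale RPL36 was at 1.30, RPL28 at 1.13, RPL6 at -1.14 and RPS27A at -0.44 in log2 fold change. With the NVR label against OV-CTRL only RPL28 was above the family and RPL3, RPL10A, RPL26 and RPL36A were below it (1.15% and 37.7% of all genes). Between the 2 DMSO groups 24 were above and 19 below (30.5% and 25.4% of all genes), while in the NVR-labelled libraries set against that OV-L1-FGGY group 17 were above and 29 below (17.7% and 51.6%). For the difference of the 2 inhibitor changes RPL12, RPL17, RPL26 and RPS2 were above the family and RPL6 below it (7.61% and 6.27% of all genes).

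FAU and RACK1, outside the rule, had log2 fold changes of 0.65 (edgeR adjusted p = 0.0334) and 0.74 (edgeR adjusted p = 9.9e-04) after ML355, of which that of RACK1 passed the test. With the NVR label against OV-CTRL both were higher, by 1.02 (edgeR adjusted p = 0.0038) and 0.62 (edgeR adjusted p = 0.0056). Paralogs of ribosomal proteins can replace their partners in some tissues. Of 7 tested, 3 were higher and 1 lower after ML355, where 21.3% and 23.5% of all genes were called. With the NVR label 2 were higher and 1 lower, where 14.5% and 15.3% of all genes were called. RPL22L1 was at 13.6, 16.4 and 12.2 CPM in OV-L1-FGGY with DMSO and 146, 99.6 and 120.2 CPM with ML355 (log2 fold change 3.11, standard error 0.22, edgeR adjusted p = 9.6e-09), and at 98.3, 71.1 and 65.0 CPM in OV-CTRL and 40.4, 29.8 and 51.0 CPM with the NVR label (log2 fold change -0.95, standard error 0.20, edgeR adjusted p = 0.0012). Its groups stood apart in both, in opposite directions, and the difference passed the test (log2 fold change 4.07, standard error 0.29, edgeR adjusted p = 3.2e-08), while that of RPL22 did not (log2 fold change 0.61, standard error 0.26, edgeR adjusted p = 0.0621). RPS27L rose in both, by 1.26 (edgeR adjusted p = 1.8e-06) and 0.71 (edgeR adjusted p = 7.4e-04).

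Other genes whose mRNAs are known to carry a TOP tract, most of them translation factors but also NPM1, a nucleolar histone chaperone, and TPT1, were listed apart. After ML355 11 of 16 tested were higher and 1 lower (median 0.73), where 21.3% and 23.5% of all genes were called. With the NVR label 3 were higher and 2 lower (median 0.15), where 14.5% and 15.3% of all genes were called. The 3 with the smallest p after ML355 were EIF2S3, NPM1 and PABPC1, at 0.95 (edgeR adjusted p = 1.8e-06), 0.96 (edgeR adjusted p = 3.5e-06) and 0.97 (edgeR adjusted p = 1.1e-05). With the NVR label TPT1, EIF3F and EEF2 were higher, at 1.21 (edgeR adjusted p = 8.7e-05), 0.91 (edgeR adjusted p = 1.6e-04) and 0.77 (edgeR adjusted p = 3.6e-04). NPM1 was lower with the NVR label (-0.41, edgeR adjusted p = 0.0085), and its difference between the comparisons passed the test (log2 fold change 1.38, standard error 0.16, edgeR adjusted p = 5.4e-06).

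Host genes of snoRNAs, many of them with TOP tracts as well, were higher after ML355. All 15 on the list were higher, with a median log2 fold change of 1.998 (21.3% of all genes were called higher). By the test of the difference 12 had a higher value with ML355 than with the NVR label, where 17.3% of all genes did. GAS5 was at 291, 331 and 255.8 CPM with DMSO and 1353, 1255 and 1378 CPM with ML355 (log2 fold change 2.18, standard error 0.15, edgeR adjusted p = 6.1e-09), and SNHG1 at 109.5, 103 and 99.7 CPM and 464, 396 and 554 CPM (log2 fold change 2.18, standard error 0.13, edgeR adjusted p = 1.4e-09). In the NVR-labelled libraries 6 were higher than in OV-CTRL and 2 lower (14.5% and 15.3% of all genes). SNHG1 was one of the lower ones (-1.20, edgeR adjusted p = 2.0e-06).

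Ribosome assembly factors process ribosomal RNA and fit the proteins onto it. After ML355 24 of 79 were higher and 19 lower (median 0.17), where 21.3% and 23.5% of all genes were called. With the NVR label 0 were higher and 38 lower (median -0.44), by edgeR, where 14.5% and 15.3% of all genes were called. The difference passed the test upward in 35 and downward in 3 (17.3% and 16.8% of all genes). The 3 with the smallest p in the NVR comparison were TCOF1 (-1.31, edgeR adjusted p = 1.0e-07), NOLC1 (-1.36, edgeR adjusted p = 1.6e-07) and UTP4 (-1.21, edgeR adjusted p = 2.6e-07), all with nucleolar roles. NOP58, a core protein of snoRNPs, was lower in both comparisons (-1.24, edgeR adjusted p = 3.5e-08 and -0.97, edgeR adjusted p = 1.3e-06). Of 15 genes of RNA polymerase I and its factors 6 were higher and 4 lower after ML355, and 1 was higher and 5 lower with the NVR label. POLR1A, the largest subunit, was lower in both (-1.59, edgeR adjusted p = 8.3e-08 and -0.77, edgeR adjusted p = 2.0e-04).

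Genes of the pathway that controls TOP mRNAs were called in both directions. Of 32 genes of mTORC1, S6 kinase, 4E-BP, LARP1 and MYC 12 were higher and 10 lower after ML355 (median -0.14, with 21.3% and 23.5% of all genes called), and 7 were higher and 8 lower with the NVR label (median 0.09, with 14.5% and 15.3% of all genes called). SESN2, an inhibitor of mTORC1, rose after ML355 (3.30, edgeR adjusted p = 2.2e-09) and was lower with the NVR label (-0.72, edgeR adjusted p = 0.0043), and EIF4EBP2, which restrains translation initiation, was at -2.41 (edgeR adjusted p = 4.3e-10) and 0.58 (edgeR adjusted p = 9.1e-04). Among 78 genes of mitochondrial ribosomal proteins 26 were higher and 6 lower after ML355 (median 0.19), beside the same 21.3% and 23.5% of all genes. Only 4 were higher and 7 lower with the NVR label (median 0.10), fewer in either direction than the 14.5% and 15.3% of all genes would give.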

How the data were processed

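RNA of 12 libraries of the NCI-H520 line was sequenced, and the authors deposited 1 table of raw read counts per Ensembl gene. The submitters' processing notes name hg38, STAR 2.5.3a and HTSeq 0.11.2, and the annotation release, strand setting and treatment of multiply mapped reads are not given in the sources used here. The labels name a TruSeq kit and the study's methods an NEB kit.

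From the deposited counts, 58302 genes were read and 57532 IDs matched to symbols in GENCODE 44. Genes with low counts were removed with filterByExpr, which left 17849, and totals of 16242082 to 27004768 counts per library set the counting error. All 4 groups entered 1 quasi-likelihood fit in edgeR 4.0.16 (R 4.3.3) with TMM scaling, robust estimation and no replicate term, called at a Benjamini-Hochberg adjusted p under 0.01 over all genes. DESeq2 1.42.0, limma voom 3.58.1 (the test the study names), other scalings, filters, thresholds and samples were alternatives. CPM are TMM-scaled and shares are of raw counts. In counts simulated for the ML355 comparison (17073 genes tested), edgeR recovered 111 of 197 genes changed by 1 on the log2 scale, with 1 false call. All other genes were simulated without change, whereas 44.8% of all genes tested were called in the real comparison. These rates are therefore not those of the real test.

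Promoter sequences are RefSeq windows of GRCh38.p14. Lengths, GC content and shared 50-base words are from GENCODE 44. They were taken from each gene's shortest transcript with a coding sequence as long as that of the Ensembl canonical transcript. Named were the 5 largest rises and falls past the test with groups that did not overlap in CPM, the 3 highest and 3 lowest members per kilobase, a fixed set of 16 members, and up to 3 genes of each related list by smallest adjusted p. Members and lists were chosen with earlier results of these data known. Results for some items that this rule would name are not reported here.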

Additional observations from a re-analysis of the deposited data

Results flagged for a closer look

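For 4 members the change after ML355 and the change with the NVR label over OV-CTRL differed by the test of the difference itself (edgeR, adjusted p under 0.01). The difference in log2 fold change was 3.05 for RPL17, 1.52 for RPL26, 1.25 for RPL36A and -1.12 for RPL6. RPL17, RPL26 and RPL36A had a mean under 100 CPM and exons shared with another gene on the same strand, and without the members under 100 CPM only RPL6 passed. The 2 changes were measured from different DMSO groups, so that inhibitor and cell line cannot be told apart in these values.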

How the results depend on the processing

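Given as members called higher and lower, with the summed counts of the members as library size there were 13 and 5 for ML355 (median log2 fold change -0.037), 1 and 4 for the NVR label over OV-CTRL (-0.0379), 17 and 29 for the NVR label over DMSO-treated OV-L1-FGGY (-0.20), and 24 higher between the DMSO groups (0.15). This scaling moved the median of all genes to -0.66, -0.85, -1.05 and 0.17, by its construction. It turned RPL39 (-0.15), RPLP0 (-0.42), RPS27A (-0.44), RPS6 (-0.037) and RPSA (-0.0276) for ML355, RPL11 (-0.0482), RPL39 (-0.13), RPS14 (-0.16), RPS27A (-0.16), RPS6 (-0.0379) and RPSA (-0.17) for the NVR label over OV-CTRL, and RPL11 (-0.20), RPL22 (-0.59), RPL39 (-0.60), RPLP0 (-0.29), RPS14 (-0.0229) and RPS4X (-0.46) for the NVR label over DMSO-treated OV-L1-FGGY. With library size only, which moved the median of all genes to -0.13, -0.15 and -0.16 in the first 3 comparisons, 1, 1 and 7 were lower and the difference had 5 and 2. With library size without mitochondrial genes 1, 1 and 7 were lower and the difference had 4 lower. DESeq2 gave 1 lower for ML355, 1 for the NVR label over OV-CTRL and 2 for the difference. Without a filter there was 1 lower in each of these comparisons, and 8 and 9 for the difference. At least 10 counts in every library, and likewise DESeq2 size factors, gave 1 lower for the NVR label over DMSO-treated OV-L1-FGGY. In fits of only the 2 groups compared there were 60 and 1 for ML355 and 12 higher for the NVR label over OV-CTRL. At an adjusted p under 0.05 there was 1 lower for ML355, 1 for the NVR label over OV-CTRL and 4 for the NVR label over DMSO-treated OV-L1-FGGY, and the difference had 5 and 4. With a log2 fold change of at least 1 in addition there were 20 higher, 15 higher, 0 lower by edgeR, and 6 and 15 between the DMSO groups. Without members under 100 CPM, chosen after seeing the data, the difference had 0 higher by edgeR. The cause was not tested where none is given.

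Leaving out 1 library at a time gave 23 to 48 higher, 0 to 1 lower and a median of 0.57 to 0.75 for ML355, 22 to 68, 0 to 1 and 0.64 to 1.03 for the NVR label over OV-CTRL, and 49 to 58, 1 to 5 and 0.81 to 1.19 for the NVR label over DMSO-treated OV-L1-FGGY. Between the DMSO groups it gave 10 to 16, 19 to 25 and -0.26 to -0.02, and for the difference 3 to 4, 1 to 11 and -0.35 to -0.02. Same-numbered libraries share only a number, with mean correlations of their deviations between -0.0495 and -0.00762. The replicate block gave 35 higher for ML355, 59 for the NVR label over OV-CTRL, 54 and 2, 12 and 23, and 3 and 1 in the other comparisons. For named genes 2512 of the values kept their direction and side of the threshold, 67 passed it newly, 110 no longer passed it and 17 reversed.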
